A study of Mus musculus with 48 samples.

Results

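The Shadow class comprised 903 elements of a massively parallel reporter assay, chosen as every row of the deposited activity table whose element class was given as Shadow, out of 11709 rows in all. Each name held the coordinates of an interval of the mouse build mm10, and all intervals had the same length. No source used here says what the class name stands for. Of the 903 intervals, 844 occurred a second time in the table, in the class named E14, with identical coordinates, and 59 did not. Nor do the sources say how the Shadow and E14 sequences of an interval differ, so the pairs are compared below by their activity alone. The table also held 2763 elements of a class named Mature and 996 scrambled controls.

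The elements had been tested in C57BL/6JRj mouse embryos (haplotype H2b), with no other allele or agent named in the labels. A plasmid pool reached the somatosensory cortex by in utero electroporation on embryonic day (E) 12, 13, 14, 15 or 16, and tissue was taken after 24 h, at E13, E14, E15, E16 or E17. Cells were fixed, permeabilised and stained for Pax6, Eomes (Tbr2) and Tubb3, and Pax6+ neural stem cells (NSC) and Tbr2+ intermediate progenitor cells (IPC) were sorted. The series held 48 libraries, a DNA and an RNA library from each of 24 biological samples, with 3 samples of each cell type at the ages E14 and E15 and 2 at every other age. In the deposited activity table an element had a single value in each of 10 columns (5 ages in 2 cell types), each combining the biological samples of that cell type and age. The spread between embryos and the depth are therefore unknown, and no element could be tested across biological samples. The sort was not checked against marker genes, since the table holds reporter activity and no gene expression.

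In a reporter assay of this kind, a candidate regulatory element is cloned into a plasmid beside a reporter gene, and the reporter RNA is set against the plasmid DNA that entered the same cells. An enhancer is a stretch of DNA that raises transcription from a promoter, often at a distance and in particular cell types, when transcription factors bind it. In the embryonic cortex, Pax6-expressing neural stem cells line the ventricle and renew themselves or divide into Eomes-expressing intermediate progenitors, which produce most excitatory neurons. Enhancers near genes such as Pax6, Hes1, Sox2 and Eomes are part of how these cell states are set up.

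Activity is given throughout as a ratio, the deposited activity score divided by the median score of the scrambled controls in the same column, so that 1 is the level of a typical scrambled sequence. An element is called above the limit in a column when its ratio lay over the value that leaves 2.5% of the scrambled controls above it. That limit ran from 2.64 in NSC at E17 to 13.3 in NSC at E13.

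No genome sequence of mm10 was used here, so full elements are not shown. For 4 elements, part of the sequence lies just upstream of the start of a protein-coding gene, where the RefSeq promoter sequences (GRCm38.p6, the assembly behind mm10) cover it. They are the intervals with at least 200 such bases and a value for both the Shadow and the E14 row in all 10 columns, and their paired values follow. Being next to a start, they are not typical of the class, in which 24 of 903 elements lay within 1 kb of a listed start. Each is written 5′ to 3′ on the strand of its gene, with capitals marking a match to a searched motif. The searched motifs were CAGATG and CAGCTG (both E-box), TAATTA (homeodomain), ACAATG (SOX), the palindromic NFI motif, TGANTCA (AP-1), ATGCNAAT (POU), GGAATG (TEAD) and TGACGTCA (CRE), on both strands. The letters are those of the reference; which of the paired rows holds them is not given. Name starts were counted from 0, which could shift an end by 1 base.
Prelp, chr1:133921452-133921651, minus strand: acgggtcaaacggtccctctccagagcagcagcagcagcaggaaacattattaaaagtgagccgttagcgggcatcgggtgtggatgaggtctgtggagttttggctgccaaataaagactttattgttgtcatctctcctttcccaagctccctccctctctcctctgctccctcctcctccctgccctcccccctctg
Rab17, chr1:90967668-90967917, minus strand: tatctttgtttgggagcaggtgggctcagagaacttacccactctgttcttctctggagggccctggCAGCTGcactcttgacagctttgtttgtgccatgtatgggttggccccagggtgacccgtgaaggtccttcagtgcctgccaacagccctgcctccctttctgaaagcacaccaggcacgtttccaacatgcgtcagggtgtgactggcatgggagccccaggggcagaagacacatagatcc
Arvcf, chr16:18380561-18380782, plus strand: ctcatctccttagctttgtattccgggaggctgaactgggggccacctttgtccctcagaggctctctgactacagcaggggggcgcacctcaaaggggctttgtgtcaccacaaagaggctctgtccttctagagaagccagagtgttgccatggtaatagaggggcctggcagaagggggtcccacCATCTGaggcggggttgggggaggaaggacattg
Calr4, chr4:109235058-109235261, plus strand: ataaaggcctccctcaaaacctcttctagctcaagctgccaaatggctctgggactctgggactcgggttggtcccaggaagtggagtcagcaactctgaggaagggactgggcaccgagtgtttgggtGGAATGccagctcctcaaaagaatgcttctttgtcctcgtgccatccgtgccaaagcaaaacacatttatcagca

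The stretch at Rab17, a small GTPase of membrane traffic, held 1 match to CAGCTG, which occurs in 12.1% of stretches of that length among 21262 RefSeq promoter windows. The stretch at Arvcf, a catenin of cell junctions, held 1 match to CAGATG on its minus strand, found in 11% of windows at that length. The stretch at Calr4, a calreticulin-like gene, held 1 match to GGAATG, found in 9.45%. The stretch at Prelp, which encodes an extracellular matrix proteoglycan, held none of the motifs. These are descriptions of the letters only.

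The Shadow row of the Rab17 interval had NSC ratios of 4.43, 0.248, 0.445, 0.659 and 0.498 from E13 to E17, and IPC ratios of 0.593, 0.426, 1.35, 0.370 and 4.44. Its E14 row gave 5.46, 1.56, 0.748, 0.769 and 2.29 in NSC and 3.06, 2.09, 1.6, 2.21 and 2.44 in the IPC columns, so that the E14 row was higher in 9 of 10 columns (median over columns 2.15 against 0.545). Arvcf showed the same order in 8 of 10 columns, with medians of 0.979 for the Shadow and 2.78 for the E14 row. The E14 row of Prelp was also higher in 8 columns, with medians of 0.901 and 1.59. At Calr4 the order was mixed: the E14 row was higher in 4 columns, and the medians were 0.695 for the Shadow and 0.605 for the E14 row.

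The bulk of Shadow elements lay at the level of the scrambled controls. The median Shadow ratio was 0.924, 1.003, 1.02, 1.04 and 1.06 in NSC from E13 to E17, and 1.05, 0.994, 0.991, 1.01 and 1.19 in IPC. Only the IPC column at E17 was more than 0.1 away from 1, and there the median of all non-scrambled elements was 1.18. The non-scrambled median was above the Shadow median in every column but IPC at E13 and E17. Individual Shadow elements spread widely around the level of the controls. In NSC at E13 the interquartile range of Shadow elements ran from 0.385 to 2.09, and the scrambled controls from 0.404 to 2.28. In IPC at E14 it ran from 0.703 to 1.38, beside 0.708 to 1.36 for the scrambled controls. Between 2 and 27 Shadow elements per column had no value.

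Averaged over 5 columns, the median Shadow ratio was 1.01 ± 0.053 (SD, n = 5 columns) in NSC and 1.05 ± 0.084 in IPC. The difference, IPC minus NSC, was 0.038. It was positive at 2 of 5 ages, by 0.129 at E13 and 0.127 at E17, and between -0.030 and -0.009 at E14 to E16. An exact permutation test of the 10 columns, 2-sided, gave p = 0.492 (adjusted p = 0.658 over the 7 tests made, Benjamini-Hochberg). Between the early ages, E13 and E14, and the late ages, E16 and E17, the mean of the column medians went from 0.994 to 1.08, a difference of 0.082 (exact permutation over 8 columns, p = 0.143, adjusted p = 0.25). Neither difference passed the threshold. All 10 columns rest on the same element set and each pools its embryos, so these p-values measure the spread between columns, not between animals.

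A minority of Shadow elements exceeded the limit, in most columns a somewhat larger share than of the scrambled controls. In NSC, 20 of 885 Shadow elements were above it at E13 (2.26%, 95% Wilson interval 1.47 to 3.46), where 3.15% of all non-scrambled elements were. The count at E14 was 33 of 901 (3.66%, background 4.12%), and it was 23 of 894 at E15 (2.57%, background 3.49%). It came to 21 of 884 at E16 (2.38%, background 3.41%) and 42 of 897 at E17 (4.68%, background 6.52%). In IPC, the share was 3.85% at E13 (34 elements, background 5.38%), 4.25% at E14 (38 elements, background 5.84%) and 3.49% at E15 (31 elements, background 3.77%). At E16 it was 4.91% (43 elements, background 4.64%), and at E17 it was 5.60% (50 of 893, interval 4.27 to 7.31, background 6.85%). The Shadow share was below that of all non-scrambled elements in 9 of 10 columns, and IPC at E16 was the exception. The Wilson intervals cover the sampling of elements only.

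Set against the scrambled controls, the Shadow share above the limit was larger by 1.23 percentage points on average, in 8 of 10 columns. The difference was largest in IPC at E17, 3.07 points, and it was -0.265 in NSC at E13 and -0.163 in NSC at E16. An exact test over sign flips of the 10 column differences, 2-sided, gave p = 0.0137 (adjusted p = 0.0479). The columns share their elements, so this p-value too measures the spread between columns only. The call was lost in the same exact test without any 1 age, and under both other limits: the difference was 1.18 points without E14 (adjusted p = 0.191), and 1.49 points with 5% of the controls above the limit (adjusted p = 0.0615). Shadow elements also lay more often than the controls at the low end, as did other classes. Below the value that leaves 2.5% of the controls under it were 3.36% of Shadow elements on average, beside 2.53% of the controls. The share was 3.40% of all non-scrambled elements and 4.43% of Mature elements, so the Shadow share was near the background. By cell type, the low Shadow share was 3.52% in NSC and 3.21% in IPC (background 3.12% and 3.68%). The low end was not tested. In its share above the limit the Mature class was closer to Shadow. It was chosen for that nearness from these same values, so the test of the difference cannot show that the 2 classes are alike. The Shadow share minus the Mature share averaged -0.113 points, was positive in 3 of 10 columns, and changed sign without E13, where it was 0.0345, or without E15, where it was 0.0313 (exact sign flips over all columns, p = 0.658, adjusted p = 0.658).

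The share of Shadow elements above the limit had a higher value in IPC than in NSC at each of the 5 ages, but the columns overlapped. It was 3.11% ± 1.04 (SD, n = 5 columns) in NSC and 4.42% ± 0.845 in IPC. The difference had a mean of 1.31 points and ran from 0.588 at E14 to 2.53 at E16. The ranges of the cell types overlapped, since the NSC column at E17 (4.68%) lay above 3 of the IPC columns. The exact permutation test gave p = 0.0635 (adjusted p = 0.148), which missed the threshold. With the columns paired by age, exact sign flips gave p = 0.0625 (adjusted p = 0.146), the smallest that 5 ages allow. All non-scrambled elements had the same order at each of the 5 ages (means of 4.14% in NSC and 5.29% in IPC). So did Mature elements (3.33% and 4.43%). The order was thus not particular to the Shadow class.

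Few Shadow elements were above the limit repeatedly. Of the 847 with a value in all 10 columns, 627 (74.0%) were above it in no column, 167 in 1, 40 in 2 and 13 (1.53%) in 3 or more. At least 1 column was reached by 220 (26.0%, background 31.7%). For 3 or more columns, the background was 2.36% of all non-scrambled elements, 1 of 955 scrambled controls (0.105%) reached 3 columns, and 63 of 889 E14 elements did (7.09%). None of the 847 was above the limit in 4 or 5 of the 5 columns of a cell type. Within NSC, 3 elements (0.354%, background 0.354%) were above it in 3 of 5 columns, and within IPC 5 were (0.590%, background 0.668%). By the authors' deposited adjusted p-value, which is less strict, 16 Shadow elements (1.89%, background 3.53%) were under 0.05 in at least 5 of the 10 columns, beside 3 scrambled controls (0.314%) and 91 E14 elements (10.2%). The shares of recurrent Shadow elements thus lay at or near the background within a cell type and below it over all 10 columns, a difference that was not tested.

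Columns ranked the Shadow elements almost independently. The median Spearman rho between 2 NSC columns was 0.059 for Shadow elements, 0.144 for E14 elements and 0.020 for the scrambled controls. Between 2 IPC columns it was 0.064, 0.194 and 0.047. These correlations run across elements that share their libraries and plasmid pool, and they are descriptions. The median ratio of each element over the 10 columns was narrow, with quartiles of 0.832 to 1.22 around 1.04. It exceeded 2 in 28 Shadow elements (3.31%), 143 E14 elements (16.1%), 54 Mature elements (2.19%) and 11 scrambled controls (1.15%). The share over all non-scrambled elements was not computed, so the Shadow count is not read as a result.

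The elements with high values in several columns are described first, chosen after their values were seen. The element inside Sema6d, a transmembrane semaphorin that guides axons (chromosome 2, 124291257 to 124291522), was above the limit in 6 columns, more than any other Shadow element. Its NSC ratios from E13 to E17 were 3.23, 2.27, 9.34, 8.72 and 3.65, and its IPC ratios 14.7, 1.43, 6.47, 11.9 and 1.51. No column fell below 1, and neither cell type was higher as a whole (mean log2 difference IPC minus NSC 0.04, computed on the ratio plus a pseudocount of 0.1). The E14 row of the same interval was also raised, with a median of 2.56 against 5.06 for the Shadow row.

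The element inside Abcc4, an efflux transporter (chromosome 14, 118566343 to 118566608), was above the limit in 5 columns. Its NSC ratios were 0.00794, 0.313, 8.67, 29.04 and 3.45, and its IPC ratios 1.96, 3.48, 5.93, 2.74 and 2.58. The 2 lowest values were those of NSC at E13 and E14, and the values from E15 on were over 2.5 in both cell types. The element inside Msrb3, a methionine sulfoxide reductase (chromosome 10, 120821038 to 120821303), was above it in 4 columns: its ratios peaked at E14 to E16 in NSC (9.15, 5.26, 4.42) and at E14 and E15 in IPC (4.71, 9.0), and were between 0.0677 and 1.05 in the other columns.

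Inside Cfap299, a gene of cilia and flagella (chromosome 5, 98790956 to 98791221), the Shadow element had the highest median of all, 5.42. Its NSC ratios were 6.17, 4.67, 1.55, 0.462 and 1.81, and those in IPC were 9.01, 11.2, 6.77, 6.27 and 2.17. IPC was higher at each of the 5 ages, and 3 IPC columns and no NSC column were above the limit. The E14 row of this interval lay between 0.168 and 1.56 and below the Shadow row in all 10 columns.

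Other elements above the limit in 3 columns sat at genes of varied roles. The element in Zfhx4, a zinc-finger homeobox factor, reached 6.55 and 11.99 in NSC at E14 and E15 and 7.38 in IPC at E15. The element 3.9 kb from Srrm4, a regulator of neural splicing, was above the limit in IPC alone, at 10.8 (E13), 7.06 (E14) and 9.73 (E17), with 2.59 and 0.0741 in IPC at E15 and E16. Its NSC ratios ran from 0.129 to 4.29, so its IPC value at E16 lay below all of them. The element in Capn5, a calpain protease, was above it in NSC alone, at 4.92 (E14), 11.1 (E16) and 8.44 (E17), with 0.421 to 1.37 in IPC. Whether these differ between the cell types was not tested, as there is 1 value per column. The element near Gas1, a hedgehog co-receptor, reached 73.1 in NSC at E13, 9.56 in NSC at E14 and 8.73 in IPC at E13. It lay between 0.447 and 2.16 in the other 7 columns.

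The highest means over the 10 columns came mostly from single columns. The element 37.3 kb from the predicted gene Gm6749 (chromosome 6, 108919982 to 108920247) had the highest mean, 67.4, which rested on a ratio of 657.7 in IPC at E16, while its median was 0.908 and its mean without that column was 1.79. The element 40.7 kb from Wdr20rt (chromosome 12, 65269190 to 65269455) had a ratio of 535.5 in NSC at E13 and a median of 0.448. Elements near Peli2, a ubiquitin ligase, and near Lrrc1 likewise owed means of 12.2 and 9.91 to 1 column each (111.2 in IPC at E17 and 86.2 in IPC at E16). In 9 of the 10 elements of highest mean, the mean without the highest column was below 0.5 of the full mean, and the element in Sema6d was the only one of the 10 with a median over 2.

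Directions between the cell types were shared by all 5 ages in few Shadow elements. IPC was higher at every age in 40 of 847 (4.72%, background 4.51%), and NSC in 28 (3.31%, background 3.87%). Among 955 scrambled controls each direction was met by 29 (3.04%), and among 889 E14 elements by 82 (9.22%) and 41 (4.61%). Both Shadow shares were near the background.

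Among those higher in IPC at every age, the largest mean log2 difference was that of the element 0.1 kb from H1f1, a linker histone gene (chromosome 13, 23764502 to 23764767). Its IPC ratios from E13 to E17 were 108.1, 1.25, 49.2, 20.5 and 0.311, and its NSC ratios 1.18, 0.382, 0.726, 0.321 and 0.242. The mean difference was 3.93, and 3 IPC columns carried it. The element in Bmper, a secreted BMP-binding protein, differed by 2.16 at low ratios: 0.0771 to 0.410 in NSC and 0.471 to 3.02 in IPC, with no column above the limit. The element near Mdfic differed by 2.59 and reached 18.2 in IPC at E15. The element in Dnah11, an axonemal dynein, differed by 2.11, with NSC ratios from 0.345 to 1.28 and IPC ratios from 1.13 to 14.3.

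Among those higher in NSC at every age, the element in Kndc1 (chromosome 7, 139898649 to 139898914) had the largest difference, -2.56. Its NSC ratios were 0.966, 6.08, 1.9, 7.27 and 0.419, and its IPC ratios ran from 0.134 to 0.461. The element in Creb5, a bZIP transcription factor, differed by -2.37: NSC gave 7.71, 3.22, 2.05, 2.8 and 1.38, whereas IPC gave 0.361, 2.61, 0.269, 0.0119 and 1.17. The NSC values of this element were highest at E13 and lowest at E17, but no column was above the limit, which was 13.3 in NSC at E13. Elements in Cyria (-2.28) and Pakap (-1.93) and near the ribosomal protein gene Rpl22l1 (-2.49) completed the 5. The Cyria element had NSC ratios of 6.25, 3.92, 2.6, 1.76 and 1.47, also highest at E13 and lowest at E17, and IPC ratios of 0.229 to 1.18. It too had no column above the limit. Whether either element changes with age was not tested.

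At the same coordinates, the E14 row was more active than the Shadow row. The median paired difference, E14 minus Shadow on the log2 scale of the ratio plus 0.1, was 0.29 ± 0.070 (SD, n = 10 columns) and was positive in 10 of 10 columns, from 0.18 in IPC at E13 to 0.38 in IPC at E16. Exact sign flips of the 10 column values gave p = 0.00195, the smallest that 10 columns allow (adjusted p = 0.0137). The columns rest on the same set of pairs, and the NSC and IPC columns of an age were flipped separately. This p-value therefore measures the spread between columns, not between animals or pairs. Without any 1 age the difference was 0.27 to 0.31, and the exact test on 8 columns missed the threshold (adjusted p = 0.0547), with the smallest p that 8 columns allow. In a single pair the order was far less certain: the E14 row was the higher in 54.9% to 61.2% of the 797 to 840 pairs of a column. The interquartile range of the paired differences spanned -1.25 to 1.86 in NSC at E13 and -0.47 to 0.92 in NSC at E17. The difference was 0.28 in NSC and 0.30 in IPC, and the gap of 0.02 did not separate the cell types (p = 0.643 in the exact permutation test, adjusted p = 0.658, positive at 3 of 5 ages), and was -0.01 without E16.

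More pairs had the E14 row than the Shadow row above the limit in each column, 26 to 127 against 18 to 46. Both rows were above it together in 0 to 10 pairs, with 8 in NSC at E17 and 10 in IPC at E17. In those columns the Shadow row was above the limit in 10.0% and 11.9% of the pairs whose E14 row was, against 3.72% and 4.86% of the other pairs. In IPC at E14, where the E14 rows above the limit were most numerous, the shares were 3.15% and 4.84%. In NSC at E13 they were 0% and 2.58%, and in IPC at E15 0% and 3.73%. Averaged over all 10 columns, the shares were 4.39% and 3.70%. The E17 columns were picked for their number of joint pairs, and the overlap was not tested. Spearman's rho between the paired ratios lay between -0.080 and 0.051 across the 10 columns, and between the medians over columns it was 0.048 (759 pairs with all 20 values, a description across pairs in shared libraries).

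Recurrent rows of both kinds were few among the pairs. Of the 759 pairs, 54 (7.11%) had an E14 row above the limit in 3 or more columns, and their E14 medians centred on 2.62. The Shadow rows of those 54 centred on 1.1 (quartiles 0.869 to 1.28), beside 1.04 for all pairs; 16 of them (29.6%) were above the limit in at least 1 column, against 26.0% of all pairs, and none in 3 or more, against 12 (1.58%) of all pairs. The 12 pairs with a Shadow row above the limit in 3 or more columns had E14 medians centred on 1.1, beside 1.25 for all pairs, and none of their E14 rows reached 3 columns. With sets this small, an overlap of 0 pairs is read as nothing about the pairs. These sets were chosen by their values in one row of the pair, so the values are given without a test.

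E14 exceeded Shadow in all 10 columns in 15 of the 759 pairs (1.98%) and Shadow exceeded E14 in all 10 in 2 (0.264%). These are all the pairs with complete values, so there is no separate background to set the shares against. In at least 8 columns, the counts were 170 (22.4%) and 34 (4.48%). Among pairs with the E14 row higher in all columns, the largest mean difference was near Bloc1s4, a subunit of a complex of lysosome-related organelles (chromosome 5, 36767351 to 36767616). Its Shadow row had NSC ratios of 0.515, 0.453, 0.594, 0.916 and 1.69, and IPC ratios of 1.19, 0.820, 0.959, 0.762 and 1.46. The E14 row gave 0.824, 1.03, 2.08, 4.69 and 3.49 over the NSC columns, while the IPC columns had 10.8, 8.46, 2.23, 6.43 and 3.52. The mean log2 difference was 1.81, and the Shadow row never reached the limit.

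The interval inside Herc1, a giant ubiquitin ligase, differed by 1.79, with Shadow ratios of 0.312 to 1.32 and E14 ratios of 1.85 to 6.73, ranges that did not overlap. Rgcc, a cell cycle regulator, differed by 1.74, Rps6ka2, a ribosomal S6 kinase, by 1.69 and the interval near Klf13, a zinc-finger factor, by 1.65. At Rps6ka2 the Shadow row stayed between 0.699 and 1.98, while the E14 row had 2.66, 1.92, 2.6, 1.78 and 1.24 in the NSC columns and 32.1, 8.33, 7.71, 3.88 and 2.66 in the IPC columns, so that the ranges overlapped in NSC and not in IPC. The 2 pairs with Shadow higher in all columns were those of Cfap299 (mean log2 difference -2.42) and near Emcn, an endothelial sialomucin (-1.17). The Emcn Shadow row reached 4.97 in NSC at E14, 3.08 in NSC at E17 and 14.1 in IPC at E16, where its E14 row had 3.72, 1.41 and 0.635.

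The 59 Shadow elements without an E14 row resembled the paired ones. Their medians over columns centred on 1.08, beside 1.04 for the 844 paired elements, and 30.5% of them were above the limit in at least 1 column, beside 27.7%. The highest by mean lay in Pakap (mean 3.66, with 22.9 in NSC at E16), in Trak1, an adaptor of mitochondrial transport (mean 3.0, with 11.6 in NSC at E13 and a median of 2.43), and in Dnah11 (mean 2.90). The Trak1 element was above the limit in no column. Neither median is tested against the other, since both rest on the same columns.

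Shadow elements were spread over gene bodies and intergenic stretches. The table's coordinates placed 510 (56.5%) inside the spans of protein-coding genes and 393 between genes, with 735 distinct genes in all. The distance to the nearest start listed among RefSeq promoters had a median of 43.9 kb (quartiles 14.5 to 120.3 kb); 24 elements lay within 1 kb of a start, 132 at 1 to 10 kb, 473 at 10 to 100 kb and 27.9% of the class beyond 100 kb. For 22 elements no start was listed on their chromosome. Starts were listed for 17491 of 21896 protein-coding genes, so the distances are upper limits. Among elements with a value in all 10 columns, medians over columns differed little with position. They centred on 1.04 both inside and between genes, and on 0.969 within 1 kb of a start against 1.04 beyond 100 kb. No 2 Shadow elements overlapped, and they covered 19 chromosomes with 15 to 85 elements each. Creb5 had the most, 6, and Aff3, Msi2, Nfia, Pax6, Pou3f3, Trak1 and Zbtb20 had 4 each. Intron and exon were not assigned, since the annotation used holds gene spans only.

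Neural stem cell genes had the most Shadow elements of the 4 gene lists, 22 beside 20 at neuron genes. The lists differ in length, and elements of other classes at their genes were not counted. The number per list is therefore not read as a result. Of the 32 listed genes, 15 had 22 Shadow elements. The 20 of these with all 10 values had medians centred on 1.12, beside 1.04 for the 847 such elements of the class. In this list 9 of 22 (40.9%) were above the limit in at least 1 column, against 27.9% of the class, and none in 3 or more. Among all non-scrambled elements with a value in all 10 columns, 31.7% were above it in at least 1. Over elements with all 10 values, the median log2 difference IPC minus NSC was 0.50 in the list and 0.08 in the class. It was 0.22 in the intermediate progenitor list, 0.23 in the neuron list and 0.01 in the glial list. No list is tested here, and an element is tied to its gene by position only.

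The 4 elements inside Pax6, the transcription factor by which the NSC were sorted, had medians of 0.504, 0.968, 0.930 and 0.804 and no column above the limit. At chromosome 2, 105686827 to 105687092, the E14 row was above the limit in 6 columns with a median of 4.01, while the Shadow row had 1.01, 3.84, 1.06, 0.607 and 0.379 over the NSC columns and 2.02, 0.848, 1.21, 0.612 and 0.233 over the IPC columns. A like contrast stood 63.8 kb from Hes1, a Notch-driven repressor of neuronal genes. The E14 row there had a median of 4.22 and 4 columns above the limit, and the Shadow row a median of 1.26 with 35.0 in IPC at E17 alone above it. In Hmga2, a chromatin protein of young neural stem cells, the medians were 3.64 for the E14 and 0.560 for the Shadow row.

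Other loci went the other way. The Shadow row in Lhx2, a cortical selector factor, had a median of 2.45, with 8.86 and 9.60 in NSC and IPC at E13, and its E14 row 1.14. Of these E13 values, only that in IPC was above the limit. The Shadow row 1.5 kb from Dmrta2 had a median of 2.24, with 9.95 in IPC at E16 and 5.72 in IPC at E17, and its E14 row 0.756. In Rfx4 the medians were 2.16 for the Shadow and 1.25 for the E14 row. Near Sox2, 3 elements between 185.5 and 426.1 kb away had Shadow medians of 1.21 to 1.31, and 1 of them reached 28.1 in IPC at E15.

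Intermediate progenitor genes had few Shadow elements. The 8 elements at 7 of 28 listed genes had medians centred on 0.836, and 1 of them (12.5%, beside 27.9% of the class) was above the limit in any column, an element 265.2 kb from Gadd45g with 4.63 in NSC at E17. The element 1.7 kb from Eomes, the gene of the IPC sorting marker Tbr2, had NSC ratios of 0.944, 1.01, 0.695, 0.698 and 1.1, with 0.830, 0.740, 1.29, 1.9 and 1.01 in IPC. Its E14 row had a median of 0.978, beside 0.976 for the Shadow row. Of 2 elements in Afap1, an actin-binding adaptor, 1 had a median of 2.04 and the other 0.821.

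At neuron genes, 20 elements at 11 of 36 listed genes centred on 0.899, and 6 (30.0%, beside 27.9% of the class) were above the limit in at least 1 column. The element in Gabrb1, a GABA receptor subunit, had the highest mean through 45.7 and 7.47 in NSC at E16 and E14, with a median of 0.521. The element in Dpysl5, a protein of neurite growth, had a steadier profile, with 8 of 10 ratios between 1.17 and 4.09 and a median of 2.17. The 4 elements near Pou3f3, an upper-layer POU factor, had medians of 0.728 to 0.952. At glial genes, 9 elements at 3 of 16 genes centred on 0.883 and 2 (22.2%, beside 27.9% of the class) were above the limit in any column. They were 259.5 kb from Zbtb20 (16.2 in NSC at E13) and 296.6 kb from Nfia (44.2 in NSC at E16 and 12.6 in IPC at E15). The 3 elements inside Nfia, a factor of the switch to glia, had medians of 0.788 to 1.07.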

How the data were processed

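Reporter DNA and RNA libraries of sorted NSC and IPC were assigned to groups by the labels. Cutadapt and the build mm10 were used, per the submitters' processing notes, with no versions. The sources used here name neither an aligner nor a barcode counter, nor the source of the activity values. The authors deposited, for each column, an activity score, a MAD score and an adjusted p-value. The deposited MAD score equals the activity score minus the scrambled median, divided by the scaled median absolute deviation of the controls (largest difference 4.66e-12). The deposited p-value is that MAD score's upper-tail normal p, Benjamini-Hochberg adjusted (largest difference 6.11e-15). Depth is unknown.

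From these, ratios to the scrambled median, limits from the controls, differences of log2(ratio + 0.1), Wilson intervals (95%) and exact permutation tests over columns were computed with Python 3.11.15, pandas 2.3.3, NumPy 2.4.6, SciPy 1.17.1 and statsmodels 0.14.6, and the scripts were tested on simulated data. A fold near the pseudocount is understated. The members, lists and tests were chosen with earlier results of these data known.

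Elements were named by rule among those with a value in all 10 columns. The rule took the 10 highest means, those above the limit in at least 4 of 5 columns of a cell type (0 elements), and the 5 largest differences between cell types in each direction with 1 sign at all ages. It also took the 5 largest paired differences in each direction with 1 sign in all columns, pairs with both rows above the limit in at least 3 of 5 columns (0 pairs), the 3 highest without an E14 row and the highest of each gene list. Elements named by their median, by 3 or more columns above the limit or within a gene list were chosen after their values were seen. Genes were assigned from 21896 protein-coding spans of GRCm38.p6. Alternatives were other limits, pseudocounts, complete elements only, the authors' p-value and leaving out each age.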

Additional observations from a re-analysis of the deposited data

How the results depend on the processing

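Of 68 alternative values for the class and pair results, 12 lost the call, 4 changed sign and 2 moved by over 1.5 times, as given here. The late minus early difference could not pass the threshold without E13, E14, E16 or E17, and does not use E15. Of the 10 highest mean ratios, 9 moved by over 1.5 times without 1 age (67.4 to 1.19 near Gm6749 and 54.5 to 1.09 near Wdr20rt). The 10 named differences between cell types kept their sign, which their choice by 1 sign at all ages fixes. The Shadow minus scrambled share lost its call without E13 (1.41 points), E14 (1.18), E15 (1.42), E16 (1.27) or E17 (0.885), with 1% of the controls above the limit (0.841) and with 5% (1.49). It kept it in elements with all 10 values (1.02, adjusted p = 0.0342) and by the authors' p-value (2.40, adjusted p = 0.0137). The E14 minus Shadow pair difference was 0.31 without E13, 0.29 without E14, 0.27 without E15, 0.29 without E16 and 0.31 without E17, each with adjusted p = 0.0547, where 8 columns allow no smaller exact value. Its IPC minus NSC gap was -0.0103 without E16. Shadow minus Mature turned to 0.0345 without E13, 0.0313 without E15 and 0.0153 in elements with all 10 values. The count above the limit in at least 3 of 10 columns was 3 with 1% and 38 with 5% of the controls above it, in place of 13; that alternative was chosen after seeing the data. The cause of the changes was not tested, and leaving out an age also leaves fewer columns. With the columns paired by age, exact sign flips gave p = 0.5 for the median, p = 0.0625 for the share above the limit and p = 0.625 for the pair gap (IPC minus NSC), and no call changed. As to replicates, no paired analysis was possible because each column pools its biological samples and carries no replicate number, so no replicate could be left out either.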
